A study of Mus musculus with 6 samples.

Results

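The 39 genes described here encode the enzymes, regulators and membrane carriers that take glucose to lactate, and the enzymes of the pentose phosphate pathway. They were chosen by name for these roles, and all 39 were found among the 24421 gene rows of the deposited count table. The table holds poly(A) RNA sequencing of monocytes sorted from the bone marrow of B6 mice, in 6 libraries. In 3 libraries the cells had received GM-CSF (granulocyte-macrophage colony-stimulating factor, a cytokine that acts on myeloid cells and their precursors) at 5 ng, with no volume given, for 3 h. The other 3 libraries were controls without GM-CSF, and the labels name no genetic change in either group. A treatment label describes medium with or without the cytokine for both groups, whereas the source label calls the control cells freshly isolated. Time in culture and GM-CSF therefore cannot be told apart in what follows. Whether the libraries of a group represent different mice or cultures is not stated in the labels. All p-values below accordingly speak of the scatter among these 6 libraries, part of which may be technical.

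Glucose enters cells through carriers of the SLC2A family and is trapped by hexokinases. Phosphofructokinase commits the sugar to glycolysis, and the PFKFB enzymes make and remove the sugar bisphosphate that activates it. Pyruvate is either reduced to lactate, which leaves with a proton through monocarboxylate transporters, or enters mitochondria, where pyruvate dehydrogenase kinases hold back its oxidation. The pentose phosphate pathway branches off after hexokinase and yields NADPH, which feeds the oxidase of phagocytes, and ribose for nucleotides. Many of these steps are served by several isoforms encoded by separate genes, which differ in affinity, regulation and tissue distribution.

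Reads in genes numbered between 16643228 and 25232956 per library, which puts 3 reads, the limit that a count of 0 allows, at 0.119 to 0.18 CPM (the usual depth-scaled read count, here on the total of reads in genes and scaled by edgeR's TMM factors of 0.9869 to 1.017). Intervals and floors of this kind cover counting error only. All 8 monocyte markers on the list used were detected, and their summed level was 27525 to 30244 CPM with GM-CSF and 58416 to 69144 CPM in controls, mostly from the lysozyme gene Lyz2. The 14 markers of neutrophils and their precursors, led by S100a8, summed to 16832 to 20854 CPM with GM-CSF and 28819 to 39121 CPM in controls. Markers of dendritic cells (41.52 to 50.6 against 82.26 to 90.14 CPM, led by Bst2), of B and plasma cells (36.59 to 49.38 against 74.93 to 78.52 CPM, led by Cd79b) and of erythroid cells (0.4676 to 1.147 against 2.225 to 2.993 CPM, led by Alas2) were also lower with GM-CSF. The 4 haemoglobin genes on the erythroid list were at 0 reads in every library, and every marker of the other lists found in the table had reads. Cycling genes summed to 1055 to 1138 CPM with GM-CSF and 1143 to 1314 CPM in controls (led by Top2a). Lists for T and NK cells (170 to 192.2 against 174.5 to 228.7 CPM, led by Nkg7) and for basophils and mast cells (19.5 to 33.38 against 21.42 to 39.19 CPM, led by Kit) overlapped between the groups. Bst2 alone stood at 34.74 to 41.3 CPM with GM-CSF and 64.75 to 73.48 CPM in controls, most of the dendritic cell sum. Nkg7 alone, at 168.8 to 191 and 172.9 to 227.2 CPM, made up nearly all of the T and NK sum. In bulk RNA, fewer cells of a type and less RNA per cell cannot be told apart, and the part of these shifts in the differences below was not tested.

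Among the 39 genes, 4 of 5 membrane carriers and 1 of 3 phosphofructokinases rose with GM-CSF, and 5 of 6 pentose phosphate genes fell. Over all genes tested, 32.8% rose and 31.2% fell. Pfkp (a phosphofructokinase), Slc2a1 (the glucose carrier GLUT1), Slc16a1 and Slc16a3 (lactate carriers MCT1 and MCT4) and Tigar (a phosphatase that opposes phosphofructokinase) rose at least 2-fold. Pdk2, Aldoc, Pfkm and Pfkfb4 fell at least 2-fold. Of the 39 genes, 38 had enough reads to be tested. By edgeR's quasi-likelihood F test, with Benjamini-Hochberg adjustment over all 11731 genes tested and a threshold of 0.05, 10 rose and 15 fell, and 13 did not pass. The 25 called genes are 65.8% of those tested, against 64% of all genes. The 10 that rose are 26.3%, against 32.8% of all genes, and the 15 that fell are 39.5%, against 31.2%. At least 2-fold changes were called in 23.7% of these genes and in 24.5% of all genes. The median log2 fold change was -0.22 over the 38 genes and 0.01 over all genes tested. The libraries of the groups did not overlap for 28 of the 38 (73.7%), against 69.6% of all genes. The share of genes called was thus close to the background, and each gene is described by its own values.

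**Figure D1:**
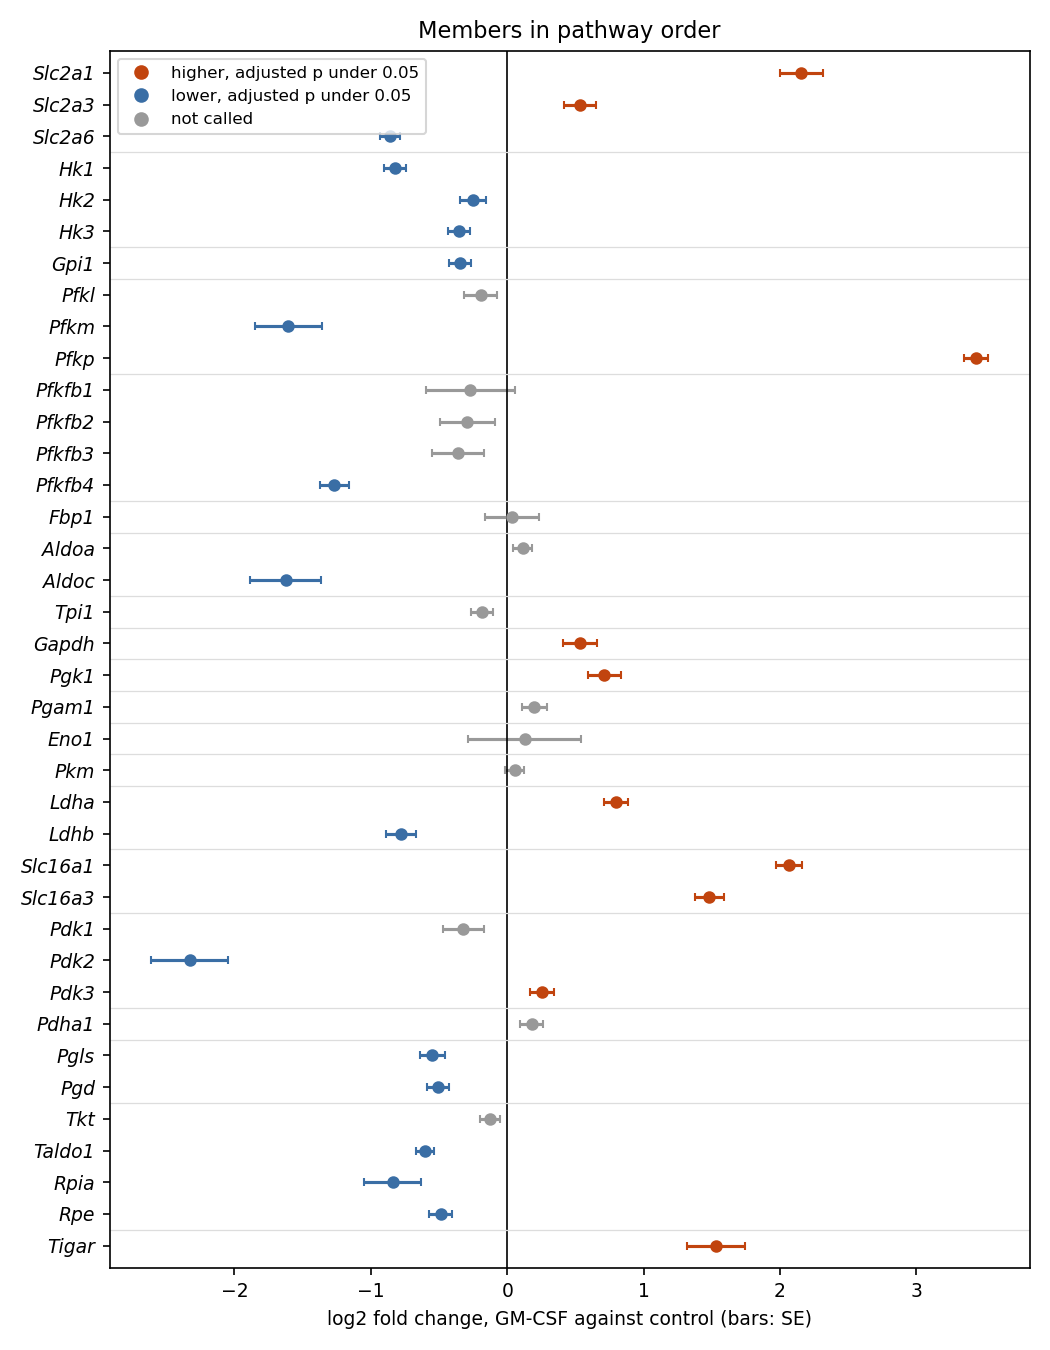
Log2 fold change (GM-CSF against control) with its SE for the 38 tested genes, in pathway order from glucose entry at the top to TIGAR at the bottom, with 3 libraries per group. Orange points rose, blue points fell and grey points did not pass the test. Pfkp stands at 3.44, and the pentose phosphate genes from Pgls to Rpe all lie below 0.

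The summed level of the 39 genes was 11075 ± 428.9 CPM (SD, n = 3) with GM-CSF and 9278 ± 157.7 CPM in controls. That is 1.07% to 1.15% of the TMM-scaled total of reads in genes against 0.915% to 0.945%. The libraries did not overlap (exact two-sided permutation p = 0.1, the smallest that 3 against 3 libraries allow). Pfkp alone made up 17.2% to 17.7% of this sum with GM-CSF and 1.78% to 2.06% in controls. With Pfkp left out, the sums were 9153 ± 376.3 and 9100 ± 153.3 CPM and overlapped (exact permutation p = 0.8).

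Sequences upstream of a RefSeq start, the first listed for each gene, are shown for 4 of the 5 genes with at least a 2-fold rise, to place their promoters side by side. The window of Tigar is not shown, because the antisense gene Platr31 runs across it. They were taken from RefSeq (GRCm38.p6), run 5′ to 3′ on the gene's strand, and carry at most 10 bases of the gene's UTRs as annotated in GENCODE M21. Capitals mark ACGTG, the core of the hypoxia response element, including where it lies inside the E-box CACGTG. The windows lie at chr3:104638414-104638663 (plus strand) for Slc16a1, chr4:119108495-119108720 (plus) for Slc2a1, chr11:120948817-120949062 (plus) for Slc16a3 and chr13:6648772-6649021 (minus) for Pfkp. Those of Slc2a1 and Slc16a3 stop short of the RefSeq start, since the bases next to it were trimmed as annotated UTR. The window of Slc16a3 lies inside the longer gene model of GENCODE M21, which begins at 120948480.
Slc16a1: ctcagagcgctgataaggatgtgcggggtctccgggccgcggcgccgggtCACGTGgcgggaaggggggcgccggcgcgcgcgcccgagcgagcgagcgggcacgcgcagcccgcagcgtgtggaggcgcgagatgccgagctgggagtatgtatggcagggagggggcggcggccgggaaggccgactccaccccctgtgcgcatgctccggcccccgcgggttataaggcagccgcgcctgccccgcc
Slc2a1: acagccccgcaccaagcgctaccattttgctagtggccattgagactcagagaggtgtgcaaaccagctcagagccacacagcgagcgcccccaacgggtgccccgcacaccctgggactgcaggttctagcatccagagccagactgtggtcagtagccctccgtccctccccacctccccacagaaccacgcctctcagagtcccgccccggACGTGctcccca
Slc16a3: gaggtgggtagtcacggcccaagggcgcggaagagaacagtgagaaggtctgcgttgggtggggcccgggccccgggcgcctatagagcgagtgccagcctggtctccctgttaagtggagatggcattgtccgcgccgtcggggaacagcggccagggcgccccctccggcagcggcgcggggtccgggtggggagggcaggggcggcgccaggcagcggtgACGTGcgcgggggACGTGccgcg
Pfkp: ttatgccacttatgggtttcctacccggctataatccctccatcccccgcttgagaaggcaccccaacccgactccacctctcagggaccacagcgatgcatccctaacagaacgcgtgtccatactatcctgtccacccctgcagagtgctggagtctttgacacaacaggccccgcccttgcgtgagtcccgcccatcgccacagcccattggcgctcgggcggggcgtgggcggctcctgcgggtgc
In these windows Slc16a1 holds CACGTG at position -200 counted from the RefSeq start, Slc2a1 holds ACGTG at -36, and Slc16a3 holds ACGTG at -27 and -14. No capitals occur in the window of Pfkp.

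Full windows of 250 bases before that start were found for 38 of the 39 genes. ACGTG, searched on both strands, occurred in 13 of the 38 (34.2%) and in 16.6% of the 27025 windows of all genes. It occurred in 6 of 9 genes that rose (66.7%), in 4 of 15 that fell (26.7%) and in 3 of the 14 others (21.4%). The 6 include Pgk1, whose counts are uncertain as described below, and Pdk3, whose call held in 10 of 15 alternative fits. The windows of all genes were not limited to the 11731 genes tested, so they include genes with few or no reads. CACGTG, every match of which also contains ACGTG, occurred in 5 of 38 (13.2%) against 6.05% of all windows. The rising genes with CACGTG were Slc16a1 and Ldha, and the falling ones were Pdk2 and Pfkm. TTCNNNGAA, the letters that STAT5, a factor activated by the GM-CSF receptor, is known to bind, occurred in 7.18% of all windows and in 0 of the 38. Bases G and C made up 59.6% of the windows of the 38 genes and 53% of all windows, and ACGTG is itself rich in them. A match is a description of letters, and no test was made of these shares.

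Glucose carriers exchanged rank. Slc2a1, which encodes GLUT1, the widely expressed basal glucose carrier, stood at 351.2, 225 and 238.9 CPM in the 3 GM-CSF libraries and at 67.03, 53.81 and 61.77 CPM in the 3 controls. Every GM-CSF library was more than 3 times above every control, and GM-CSF replicate 1 was the highest. The log2 fold change was 2.16 ± 0.16 (SE; edgeR adjusted p = 6.11e-07). Slc2a6, whose product GLUT6 is a carrier of lysosomal membranes in macrophages, stood at 101.3, 102.5 and 103.8 CPM with GM-CSF and at 184.4, 174.1 and 198.4 CPM in controls. Its libraries did not overlap either, in the opposite direction, with a log2 fold change of -0.86 ± 0.07 (edgeR adjusted p = 2.08e-06). Slc2a3, which encodes the high-affinity carrier GLUT3, rose from 18.28 ± 1.55 to 26.43 ± 2.25 CPM, a log2 fold change of 0.53 ± 0.12 (edgeR adjusted p = 0.00226).

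Per kilobase of exon, so that genes of different length can be compared, Slc2a1 made up 22.3% ± 1.67 (SD, n = 3) of the 3 carriers in controls and 67.9% ± 5.29 with GM-CSF. Slc2a6 went from 74.4% ± 1.38 to 28.8% ± 4.78, so the leading carrier transcript differed between the groups. Slc2a3 held 3.26% and 3.28%. The ratio of Slc2a1 to Slc2a6 within a library was 7.94 times higher with GM-CSF (log2 difference 2.99), with no overlap. The summed level of the 3 carriers was 113.1 ± 19.4 CPM per kilobase with GM-CSF and 77.69 ± 4.93 in controls, 1.46-fold higher (exact permutation p = 0.1).

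All 3 hexokinases, which phosphorylate glucose on entry, fell. Hk3, the isoform typical of myeloid cells, stood at 323.1, 369.1 and 391.4 CPM with GM-CSF and at 442.2, 466.1 and 475.3 CPM in controls. All GM-CSF libraries lay below all controls (log2 fold change -0.35 ± 0.08, edgeR adjusted p = 0.00305). Hk1, which binds mitochondria, fell more, from 129 ± 7.49 to 73 ± 3.89 CPM (-0.82 ± 0.08 on the log2 scale, edgeR adjusted p = 5.12e-06). Hk2, the isoform usually raised together with glycolysis, was at 57.76 ± 6.21 CPM with GM-CSF and 68.64 ± 2.5 CPM in controls (log2 fold change -0.25 ± 0.09, edgeR adjusted p = 0.0353). The call of Hk2 was lost when any 1 library other than GM-CSF replicate 1 was left out, with values between -0.37 and -0.18 over all alternatives.

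Hk3 led the step in both groups, with 84.2% ± 1.82 of the 3 hexokinases per kilobase under GM-CSF and 82.5% ± 0.174 in controls, and these shares overlapped. Hk1 held 7.37% ± 0.286 against 9.95% ± 0.271, and Hk2 8.4% ± 1.57 against 7.58% ± 0.438. With the longest protein-coding transcript as length, Hk1 held 12.2% against 16.2% and Hk2 7.57% against 6.71%. Which of Hk1 and Hk2 was higher under GM-CSF thus depends on the length used. The summed level of the 3 genes was 116.3 ± 8.82 CPM per kilobase with GM-CSF and 151.9 ± 5.32 in controls (exact permutation p = 0.1). Gpi1, the isomerase that follows, fell from 719.7 ± 50.1 to 566 ± 29.7 CPM, a log2 fold change of -0.35 ± 0.08 (edgeR adjusted p = 0.00237).

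Phosphofructokinase showed the largest change among the 38 genes. Pfkp, the platelet-type isoform, stood at 1988, 1890 and 1887 CPM with GM-CSF and at 190.1, 162.7 and 179 CPM in controls. The difference of 10.84-fold (log2 3.44 ± 0.09, edgeR adjusted p = 2.29e-10) was far beyond the spread within either group. Pfkl, the liver-type isoform, stood at 110.4, 78.83 and 80.76 CPM with GM-CSF and at 107, 95.25 and 106.5 CPM in controls. These libraries overlapped, and Pfkl did not pass the test (log2 fold change -0.19 ± 0.12, edgeR adjusted p = 0.188). Without GM-CSF replicate 1, Pfkl was called lower at -0.37. Pfkm, the muscle-type isoform, was low throughout, at 2.536, 3.094 and 1.777 CPM with GM-CSF and 6.282, 8.936 and 7.147 CPM in controls. It fell by 1.61 ± 0.24 on the log2 scale (edgeR adjusted p = 1.64e-04).

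Within each library the ratio of Pfkl to Pfkp was 12.6 times lower with GM-CSF (log2 difference -3.65), and that of Pfkm to Pfkp 33 times lower (-5.04). Per kilobase of exon, Pfkp held 91% ± 1.26 of the step with GM-CSF and 42.8% ± 1.26 in controls, while Pfkl held 8.52% ± 1.28 and 49.9% ± 0.837. Which isoform led in controls depended on the length used. The union of annotated Pfkp exons is 13401 bases long and its longest protein-coding transcript 4145, and with the latter Pfkp led in controls too, with 58.6% against 37.8% for Pfkl. The summed level of the 3 genes was 157.6 ± 6.96 CPM per kilobase with GM-CSF and 30.88 ± 1.59 in controls, 5.1-fold higher (exact permutation p = 0.1). The size of this fold also depends on the length used, and the sum was made with the exon unions only. Pfkp lies on chromosome 13 from 6579768 to 6648777 (GRCm38), where it overlaps Pitrm1, a gene for a mitochondrial protease. Of the 100-base stretches of its transcript, 16% also occur in Pitrm1, whose own log2 fold change was 0.60 ± 0.09.

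**Figure D2:**
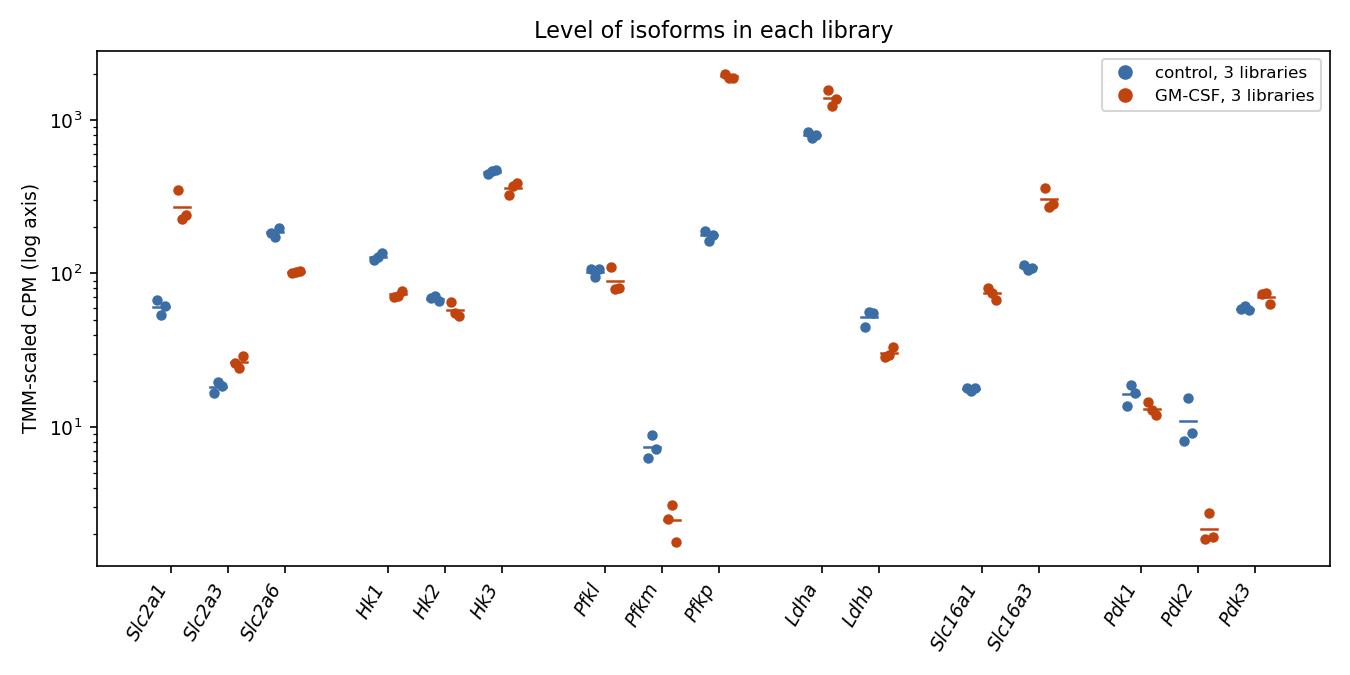
TMM-scaled CPM on a log axis in each of the 6 libraries for the isoforms of 6 steps, with a bar at each group mean. Blue points are the 3 controls and orange points the 3 GM-CSF libraries. Pfkp rises to 1887 to 1988 CPM while Pfkl overlaps between the groups, and Ldha and Ldhb move in opposite directions.

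Among the PFKFB enzymes, the bifunctional enzymes that set the level of the activator of phosphofructokinase, 1 fell and 3 did not pass the test. Pfkfb4 stood at 58.03, 72.7 and 78.65 CPM with GM-CSF and at 167.8, 175.4 and 161 CPM in controls. All GM-CSF values were under the lowest control by more than 2-fold (log2 fold change -1.27 ± 0.11, edgeR adjusted p = 1.67e-06). Pfkfb3, the isoform whose kinase activity most exceeds its phosphatase activity, was at 24.58, 13.62 and 18.94 CPM with GM-CSF and 21.59, 27.64 and 24.14 CPM in controls. The groups overlapped, with a log2 fold change of -0.36 ± 0.19 (edgeR adjusted p = 0.117), and it was called lower at -0.58 without GM-CSF replicate 1. Pfkfb2 (4.33 ± 0.12 against 5.295 ± 0.994 CPM) and Pfkfb1 (1.721 ± 0.621 against 2.077 ± 0.323 CPM) were low. Pfkfb4 led in both groups, with 79.9% ± 4.87 of the 4 genes per kilobase under GM-CSF and 88.5% ± 0.609 in controls, while Pfkfb3 held 14.4% ± 5.3 and 8.29% ± 0.802. Their summed level was 17.86 ± 1.81 CPM per kilobase with GM-CSF and 38.96 ± 1.74 in controls, a ratio of 0.458 without overlap (exact permutation p = 0.1). Fbp1, the phosphatase of gluconeogenesis that reverses the phosphofructokinase step, was at 11.18 ± 1.94 and 10.95 ± 2.74 CPM (log2 fold change 0.03 ± 0.20, edgeR adjusted p = 0.888).

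Aldolase, which splits the sugar into trioses, was almost wholly Aldoa. It stood at 1149, 1050 and 1103 CPM with GM-CSF and at 1021, 1027 and 1004 CPM in controls. Although these libraries did not overlap, the difference was small and did not pass the test (log2 fold change 0.11 ± 0.07, edgeR adjusted p = 0.177), and its sign turned with upper quartile scaling. Aldoc, the isoform best known from brain, fell, from 86, 87 and 79 reads in the controls to 16, 21 and 27 reads with GM-CSF. In CPM these were 3.626, 3.44 and 3.739 against 0.9662, 1.249 and 1.263, a log2 fold change of -1.62 ± 0.26 (edgeR adjusted p = 2.46e-04). Aldoc held 0.401% ± 0.0211 of aldolase per kilobase in controls and 0.12% ± 0.0215 with GM-CSF.

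From triose phosphate isomerase to pyruvate kinase, 2 of 6 tested genes rose, 0 fell and 4 did not pass. Over all genes tested, 32.8% rose and 31.2% fell. The 2 that rose, Gapdh and Pgk1, have uncertain counts, as described below. Tpi1, the isomerase, was at 324.9 ± 32 CPM with GM-CSF and 369.1 ± 16.5 CPM in controls (log2 fold change -0.18 ± 0.08, edgeR adjusted p = 0.0726). It was called lower at -0.27 without GM-CSF replicate 1. Pkm, the pyruvate kinase, stood at 2075, 2022 and 2035 CPM with GM-CSF and at 1950, 1969 and 1985 CPM in controls. Per kilobase of the union of annotated exons, Pkm was the second most abundant of the 39 genes in controls, after Taldo1. This rank depends on the length used. The union is 5001 bases long for Pkm and 2171 for Taldo1, and the longest protein-coding transcript 2432 and 1362. The log2 fold change of Pkm was 0.05 ± 0.07 (edgeR adjusted p = 0.508), with the opposite sign under upper quartile scaling. Its splice forms PKM1 and PKM2 cannot be told apart in counts per gene.

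Gapdh, Pgk1, Pgam1 and Eno1 share long stretches with retrocopies and pseudogenes, and their counts are uncertain. For Gapdh, the triose phosphate dehydrogenase, 78% of the 100-base stretches of its coding transcript also occur in other genes, 81 of 86 of which are annotated pseudogenes. It was counted at only 28.08 ± 4.3 CPM with GM-CSF and 19.41 ± 0.68 CPM in controls. Per kilobase this was 6.79 and 4.7 CPM, against 296.6 and 274.2 for Aldoa. Pgk1, phosphoglycerate kinase, shares 67% of its stretches (68.04 ± 11.4 against 41.5 ± 3.06 CPM) and Pgam1, phosphoglycerate mutase, 39.7% (110.6 ± 8.93 against 96.3 ± 9.32 CPM). Gapdh (log2 fold change 0.53 ± 0.13, edgeR adjusted p = 0.00341) and Pgk1 (0.71 ± 0.12, adjusted p = 3.3e-04) rose, and Pgam1 did not pass (0.20 ± 0.09, adjusted p = 0.0813). Without control replicate 1, Pgam1 was called higher at 0.27. Reads without a unique position made up 18% to 19.6% of counted reads per library. How many of them belong to these genes was not tested.

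Nearly all counted reads of the enolase pair Eno1 and Eno1b were assigned to the retrogene Eno1b. Eno1, the main enolase of most cells, was counted at 0.785, 0.6544 and 1.216 CPM with GM-CSF and 0.8432, 0.5931 and 1.041 CPM in controls, and it shares 59% of its stretches, nearly all with Eno1b. Eno1b was counted at 172.3 ± 13.7 and 121.6 ± 6.46 CPM. The sum of both was 177.2, 157.7 and 184.7 CPM with GM-CSF and 126.4, 125.8 and 115.2 CPM in controls, with no overlap (exact permutation p = 0.1). Reads of the pair cannot be divided between them from these counts, and Eno1 alone had a log2 fold change of 0.13 ± 0.41 (edgeR adjusted p = 0.796). Eno2, the neuronal isoform, had 6, 3 and 12 reads with GM-CSF and 0 in each control. It was too low for the test over all genes. With the reads of each group pooled and divided by the group's total, the 21 GM-CSF reads were at least 8.93-fold higher than 3 reads over the whole control group (0.0429 CPM), the limit that 0 reads allow. This bound leaves aside the counting error of the 21 reads.

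**Figure D3:**
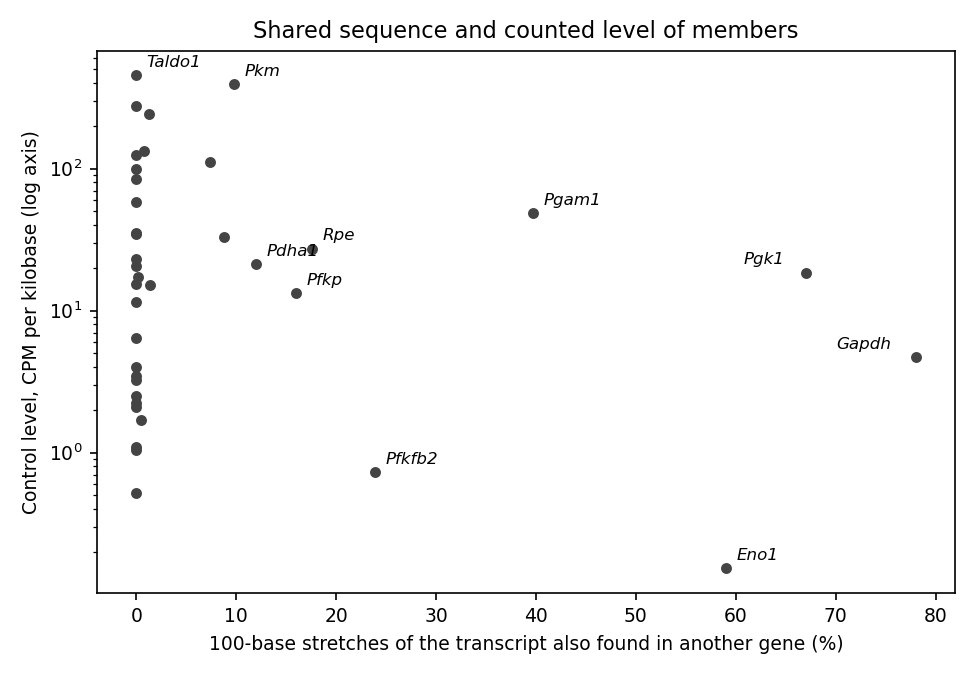
Share of 100-base stretches of each gene's longest protein-coding transcript that also occur in transcripts of another gene (x axis, %) against its control level (y axis, CPM per kilobase, log axis), 1 point per gene for the 38 with control reads. Gapdh, Pgk1, Eno1 and Pgam1 lie at 39.7% or more, and Eno1 and Gapdh have low counted levels.

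Setting aside the 8 genes with at least 10% of stretches shared (Pfkp among them) left 30 tested genes, of which 7 rose and 14 fell, where 64% of all genes were called.

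The lactate dehydrogenase genes moved in opposite directions. Ldha, whose form of the enzyme favours reduction of pyruvate, stood at 1563, 1241 and 1373 CPM with GM-CSF and at 834.7, 768.7 and 799.1 CPM in controls. The libraries lay well apart (log2 fold change 0.80 ± 0.09, edgeR adjusted p = 1.91e-05). Ldhb, the form typical of heart, fell, from 44.56, 56.11 and 55.66 CPM to 28.74, 29.27 and 33.01 CPM (-0.78 ± 0.11, edgeR adjusted p = 1.17e-04). Per kilobase, Ldha held 95.6% ± 0.607 of the pair with GM-CSF and 87.9% ± 1.73 in controls. The ratio of Ldha to Ldhb within a library was 2.96 times higher, and the sum of both was 439.9 ± 48.6 CPM per kilobase with GM-CSF and 275.1 ± 6.48 in controls, without overlap (exact permutation p = 0.1).

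Both monocarboxylate transporters, through which lactate leaves or enters, rose. Slc16a1, which encodes MCT1, stood at 80.49, 74.25 and 67.52 CPM with GM-CSF and at 17.92, 17.12 and 18.03 CPM in controls. Slc16a3, which encodes MCT4, the low-affinity exporter of glycolytic cells, stood at 362.4, 272.4 and 284 CPM with GM-CSF and at 114.1, 105.2 and 109.4 CPM in controls. In both genes every GM-CSF library was above every control by more than 2-fold. The log2 fold changes were 2.07 ± 0.10 (4.19-fold, edgeR adjusted p = 2.08e-08) for Slc16a1 and 1.48 ± 0.11 (2.8-fold, edgeR adjusted p = 4.86e-07) for Slc16a3. Slc16a3 remained the leading transcript per kilobase, with 77.3% ± 1.84 of the pair under GM-CSF and 83.7% ± 0.344 in controls. The pair summed to 74.33 ± 10.4 CPM per kilobase with GM-CSF and 24.6 ± 0.93 in controls, 3.02-fold higher (exact permutation p = 0.1). Bsg, which encodes basigin, a partner that brings both carriers to the membrane, was at 249.7 ± 11.2 and 238.6 ± 11.7 CPM and did not pass the test (log2 fold change 0.07 ± 0.07, edgeR adjusted p = 0.435). Emb, which encodes embigin and stands on the same list of further genes as Bsg, fell. It was at 614.7 ± 30.3 CPM with GM-CSF and 1111 ± 92.9 CPM in controls (log2 fold change -0.85 ± 0.08, edgeR adjusted p = 5.14e-06). Of its stretches, 20.8% are shared with Gm17509. Counting the glucose carriers as well, 4 of the 5 membrane carriers rose and 1 fell.

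**Figure D4:**
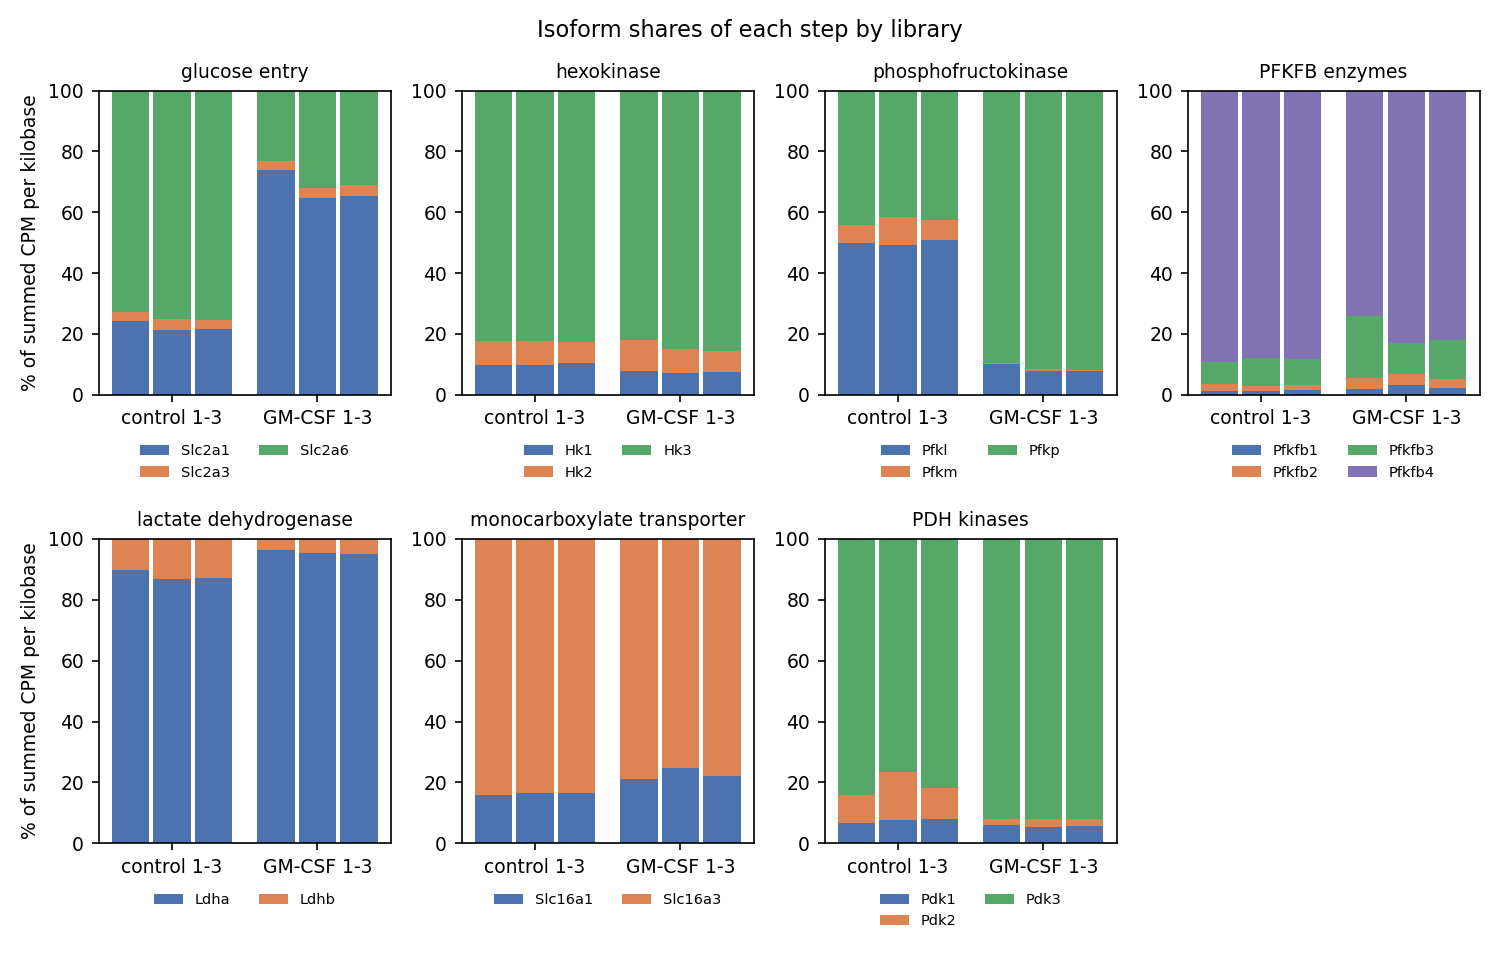
Share of each isoform in the summed CPM per kilobase of its step (y axis, %), 1 stacked bar per library, with the 3 controls on the left and the 3 GM-CSF libraries on the right of each panel. Slc2a6 gives way to Slc2a1 as the leading isoform. Pfkp leads its step with GM-CSF, while whether Pfkl or Pfkp leads in controls depends on the length used. Hk3, Pfkfb4, Ldha, Slc16a3 and Pdk3 lead their steps in both groups.

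The kinases that inhibit pyruvate dehydrogenase moved apart. Pdk3 stood at 73.97, 75.02 and 62.9 CPM with GM-CSF and at 58.47, 61.09 and 57.89 CPM in controls. The gap between the groups was narrow, and the call (log2 fold change 0.25 ± 0.09, edgeR adjusted p = 0.0277) was lost with upper quartile scaling and without GM-CSF replicate 1 or 2 or control replicate 1 or 3, over a range of 0.14 to 0.34. Pdk2 fell, from 8.095, 15.34 and 9.182 CPM in controls to 1.872, 2.737 and 1.917 CPM with GM-CSF. Control replicate 2 was the highest, and even the lowest control lay above every GM-CSF library (log2 fold change -2.33 ± 0.28, edgeR adjusted p = 2.89e-05). Pdk1, the isoform known as a target of hypoxia signalling, was at 13.15 ± 1.32 and 16.4 ± 2.54 CPM and did not pass (-0.32 ± 0.15, edgeR adjusted p = 0.0822). It was called lower at -0.44 without control replicate 1 and also with upper quartile scaling. Pdk4 had 0 reads in every library.

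Pdk3 held 92.1% ± 0.0791 of the 3 kinases per kilobase with GM-CSF and 80.8% ± 3.79 in controls, and Pdk2 2.29% ± 0.416 and 11.8% ± 3.29. The ratio of Pdk2 to Pdk3 was 5.75 times lower with GM-CSF. The summed level was 29.96 ± 2.83 and 28.64 ± 2.16 CPM per kilobase, with overlap (exact permutation p = 0.7). Pdha1, the E1 alpha subunit of pyruvate dehydrogenase, was at 89.28 ± 4.43 and 78.9 ± 6.15 CPM (log2 fold change 0.18 ± 0.08, edgeR adjusted p = 0.0843), and passed without GM-CSF replicate 3 (0.22) or control replicate 3 (0.24). It shares 12% of its stretches with Map3k15, which it overlaps.

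In the pentose phosphate pathway 5 of 6 genes fell, 0 rose and 1 did not pass, with a median log2 fold change of -0.53; of all genes tested, 31.2% fell and 32.8% rose. The oxidative arm, which yields NADPH, was represented by Pgls, the lactonase, and Pgd, the second dehydrogenase. Pgls fell from 132 ± 5.49 to 90.02 ± 10.7 CPM (-0.55 ± 0.09, edgeR adjusted p = 3.18e-04). Pgd stood at 442.9, 475.5 and 428 CPM with GM-CSF and at 646, 578.8 and 689.2 CPM in controls (-0.51 ± 0.08, edgeR adjusted p = 2.61e-04). G6pdx, which encodes the rate-limiting first dehydrogenase of this arm and is not one of the 39, fell in the same direction, from 904 ± 10.7 to 666.7 ± 22.8 CPM (-0.44 ± 0.07, edgeR adjusted p = 1.7e-04).

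The non-oxidative arm exchanges sugars between this pathway and glycolysis. Taldo1, transaldolase, stood at 658.6, 628.5 and 658 CPM with GM-CSF and at 1001, 996.3 and 954.7 CPM in controls (log2 fold change -0.60 ± 0.07, edgeR adjusted p = 1.65e-05). It was the most abundant of the 39 genes per kilobase of the union of exons in controls, at 453.3 CPM per kilobase. As said for Pkm, this rank depends on the length used. Tkt, transketolase, was at 570.6 ± 21.2 and 623.5 ± 42.4 CPM and did not pass (-0.13 ± 0.07, edgeR adjusted p = 0.156). Rpe, the epimerase, fell from 84.78 ± 5.92 to 60.42 ± 2.79 CPM, and Rpia, the isomerase, from 5.603 ± 0.257 to 3.112 ± 0.557 CPM. The 6 genes together summed to 1821 ± 22.4 CPM with GM-CSF and 2468 ± 61 CPM in controls, with no overlap (exact permutation p = 0.1).

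Tigar, whose product lowers the activator of phosphofructokinase and is known to favour the pentose phosphate pathway, rose. It stood at 22.71, 18.5 and 12.35 CPM with GM-CSF and at 5.902, 5.852 and 6.721 CPM in controls. The GM-CSF libraries were spread over nearly 2-fold, yet all lay above the controls (log2 fold change 1.53 ± 0.21, edgeR adjusted p = 7.49e-05).

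Other genes of the same pathways gave 69 further rows, of which 50 were tested, 13 rose, 28 fell and 9 did not pass, with a median log2 fold change of -0.34. Of all genes tested, 64% were called, 32.8% higher and 31.2% lower. In the glycogen and gluconeogenesis list, 10 of 15 tested genes fell and 1 rose, and Pck2, the mitochondrial carboxykinase, fell from 71.18 ± 2.44 to 24.52 ± 2.77 CPM (-1.53 ± 0.10). Of 6 tested further pentose phosphate genes, 5 fell, with H6pd, the dehydrogenase of the endoplasmic reticulum, at -1.45 ± 0.11, and 1 rose. Among further isozymes and carriers 8 of 13 tested genes fell and 2 rose. Those that fell at least 2-fold at a mean log2 CPM no lower than 1 were Slc16a7 (the carrier MCT2, -1.93 ± 0.18), Slc2a9 (a urate carrier, -1.43 ± 0.26), Slc2a8 (GLUT8, -1.37 ± 0.15) and Bpgm (the bisphosphoglycerate mutase, -1.14 ± 0.20). Slc16a7 and the pair Slc16a1 and Slc16a3 belong to the same carrier family and moved in opposite directions. The 2 genes of this list that rose were Eno1b and Slc16a6, the latter also of this family. Slc16a6 went from 25.95 ± 2.42 to 49.47 ± 1.15 CPM (0.93 ± 0.10, edgeR adjusted p = 1e-05) and shares 23.2% of its stretches with Amz2.

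Pyruvate entry and the pyruvate dehydrogenase complex gave 6 genes that rose and 3 that fell among 10 tested. Over all genes tested, 32.8% rose and 31.2% fell. Those that rose were the subunits of the complex Dld (0.71 ± 0.09), Dlat (0.29 ± 0.08), Pdhx (0.24 ± 0.10) and Pdhb (0.17 ± 0.07) and the phosphatases that activate it, Pdp2 (0.51 ± 0.19) and Pdp1 (0.50 ± 0.14). The calls of Pdhb (edgeR adjusted p = 0.0459) and Pdhx (edgeR adjusted p = 0.046) each held in only 1 of the 6 fits that left out 1 library. That of Pdp2 (edgeR adjusted p = 0.0337) held in 2 of these fits. The mitochondrial pyruvate carrier subunits Mpc1 (-0.53 ± 0.16, edgeR adjusted p = 0.0132) and Mpc2 (-0.36 ± 0.09, edgeR adjusted p = 0.00368) fell. Pdpr, a regulatory subunit of pyruvate dehydrogenase phosphatase, also fell (-0.73 ± 0.21), with a call that held in 5 of these fits. Of the genes of the glycerol phosphate and malate-aspartate shuttles, which reoxidise cytosolic NADH, 3 of 6 tested rose and 2 fell. Gpd2, the mitochondrial glycerol phosphate dehydrogenase, rose from 63.67 ± 2.58 to 254.6 ± 19.3 CPM (log2 fold change 2.00 ± 0.08, edgeR adjusted p = 7.47e-09). Got1, the cytosolic aspartate aminotransferase, rose from 13.67 ± 0.64 to 51.51 ± 13.3 CPM (1.91 ± 0.16, edgeR adjusted p = 2.09e-06).

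Over the 9 steps with more than 1 isoform there were 22 pairs of isoforms. In 18 pairs the log2 ratio within libraries did not overlap between the groups, each with the smallest exact permutation p of 0.1 (0.122 adjusted over the 22 pairs), so the design cannot bring any of them under 0.05. The 4 pairs that overlapped were Hk2 with Hk3 and the pairs among Pfkfb1, Pfkfb2 and Pfkfb3. Summed levels did not overlap in 7 of the 9 steps. Among all genes tested singly, the groups did not overlap in 69.6%. The steps that overlapped in sum were the pyruvate dehydrogenase kinases and enolase. For enolase this sum held Eno1 and Eno2 but left out Eno1b, whose reads cannot be divided from those of Eno1. The sum of Eno1 and Eno1b did not overlap, at 157.7 to 184.7 CPM with GM-CSF and 115.2 to 126.4 CPM in controls.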

How the data were processed

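The deposited file holds raw read counts per gene symbol made by the authors, 1 column per library, matched to samples by title. Per the submitters' processing notes, the build was mm10 and the tools were edgeR, HTSeq 0.6.1p1, STAR 2.5.2a and Trim Galore 0.4.4. What each tool did, the gene annotation and any strand setting are not given in the sources here, so reads of overlapping and antisense genes may be mixed. Per library, 69.4% to 71.2% of counted reads lay in genes, and rows that name no gene were left out.

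Tests on the counts used edgeR 4.0.16 in R 4.3.3 (TMM, filterByExpr with a minimum count of 10 and total of 15, glmQLFit and glmQLFTest, group as the only term), with Benjamini-Hochberg adjustment over 11731 genes. The filter removed 12690 of 24421 rows. Of all rows, 8273 had 0 reads in every library. The common biological coefficient of variation was 0.119. Isoform ratios (0.5 reads added) and summed levels were compared by exact two-sided permutation tests. Lengths are unions of exons in GENCODE M21 (GRCm38, the assembly of mm10). Stretches of 100 bases were looked up in all other genes' transcripts. The procedure was tested on simulated counts for GM-CSF against control over 11585 genes, of which 200 were changed. It called 13.4% of genes changed 1.25-fold, 50.7% at 1.5-fold and 78.8% at 2-fold. False calls were 9, or 8.65% of calls. In the data 64% of genes were called, and the adjustment depends on the share of genes changed. These rates therefore do not carry over to the fit described above.

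The members and all gene lists were chosen with earlier results of these data known. All 39 members are named. Values in every library are given for those called with an absolute log2 fold change of at least 1 and for the leading isoform of each step, and for some others chosen after their values were seen. Other pathway genes are named when called with an absolute log2 fold change of at least 1 at a mean log2 CPM no lower than 1, and G6pdx, Mpc1, Mpc2, Pdk4 and Bsg in any case. Eno1b, Pitrm1, Slc16a6, Emb, the pyruvate dehydrogenase genes below that size and the promoters shown were chosen after values were seen. Of each list of other cells, the gene with the highest mean CPM is named. Alternatives were other scalings, filters and tests (limma 3.58.1, DESeq2 1.42.0), a replicate block, other lengths and leaving out each library.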

Additional observations from a re-analysis of the deposited data

How the results depend on the processing

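Of the 25 called genes, 23 were called the same way in all 15 alternatives for single genes; Hk2 and Pdk3 were not, as given above. Upper quartile scaling moved the median of all genes to -0.11, the members to 9 higher and 20 lower and all genes to 3257 higher and 4318 lower. It added Pfkl, Pfkfb3, Tpi1, Pdk1 and Tkt to the genes called lower. Under it Fbp1 (-0.0845), Aldoa (-0.00389) and Pkm (-0.0628) changed sign, none of them called. With CPM without gene length, or with the longest protein-coding transcript as length (added after seeing the data), the leading isoform differed between groups in 1 step, glucose entry, in place of 2. Leaving out each library in turn gave -0.12 to 0.23 for Fbp1 and -0.18 to 0.32 for Eno1. For differences in log2 ratio it gave -0.0607 to 0.222 for Hk2 to Hk3, -0.31 to 0.20 for Pfkfb1 to Pfkfb2 (0.0108 with 5 reads added), -0.40 to 0.54 for Pfkfb1 to Pfkfb3 and -0.12 to 0.35 for Pfkfb2 to Pfkfb3. The cause was not tested. Genes under about 0.18 CPM cannot be told from 0.

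Same-numbered libraries of the groups deviated together with correlations of 0.129, 0.0231 and 0.0229 over genes, so the labels' numbers were not taken as pairs, and GM-CSF replicate 2 correlated best with control replicate 3. With the replicate block, 11 members were higher (Pgam1 being added) and 15 lower, of all genes 3848 were higher and 3645 lower, of other pathway genes 12 and 29, and in 18 of the isoform pairs all same-numbered differences had 1 sign.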
